A study of Homo sapiens with 12 samples.

Results

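The genes described here are the protein-coding genes of human chromosome 13 that were read in K562 leukemia cells and in 2 etoposide-resistant clones made from them. They were chosen by raw counts, with at least 10 counts in at least 4 of the 12 columns of the deposited table, and symbols that begin with ABC or SLC were left out. Of 323 protein-coding genes annotated on the chromosome, 322 were in the table and 201 passed the minimum. SLC25A15, ABCC4, SLC46A3, SLC7A1 and SLC25A30 were left out by their symbols, which gave 196 members out of 60671 genes in the table. The chromosome as a whole was picked because its genes were shifted upward in K/VP.5 cells, so every K/VP.5 value below is a description of genes selected on that shift and carries no p-value. For the main settings, counts of called genes over all members in the K/VP.5 comparisons are given beside the same share or count over all genes tested. Nothing is read from the difference.

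K562 is a human chronic myeloid leukemia line with erythroid features. K/VP.5 is a clone that was selected from K562 for resistance to etoposide, a drug that traps DNA topoisomerase II on DNA. K562/SSedit-2 is a clone of K562 in which CRISPR/Cas9 cutting with a repair template silenced the 5′ splice site between exon and intron 19 of TOP2α in 2 of its 3 alleles. RNA from 4 replicates of each line was sequenced, which asked how the edited and the drug-selected cells differ from their parent. Each derived line is 1 clone and its replicates are samples of that clone. Since no label states whether the replicates were separate cultures, a p-value here measures the spread between these samples, which may be technical. Total counts per library, as deposited, ranged from 28981722 in K/VP.5 replicate 4 to 43648830 in K562 replicate 2.

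As background, chromosome 13 is acrocentric and its long arm is among the gene-poor parts of the genome. It carries the tumor suppressors RB1, which restrains E2F transcription factors, and BRCA2, which acts in homologous recombination. Its genes share a chromosome and not a pathway, and the RNA level of each depends on how many copies of the gene a cell holds and on how each copy is regulated. DNA copies were not measured here.

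The guide used to make the edited clone is shown first, because 5 places on chromosome 13 resemble it and mark where along the chromosome members lie nearest to such a place. The guide of 20 bases and the sites found in GRCh38 with up to 4 mismatches, each followed by its NGG, are given 5′ to 3′ on the strand named. Capitals mark bases of a site that differ from the guide.
sgRNA-1: gtcttcttatcatcatggtg
chr13:18965593-18965615, minus strand: gtcttctCatcatcatCTGgggg
chr13:36611473-36611495, minus strand: gtTttGttaGcatGatggtgagg
chr13:75540292-75540314, plus strand: TtcttGttGtcatcatggtgagg
chr13:79893679-79893701, plus strand: gtAttTttatTatcatAgtgagg
chr13:89659478-89659500, plus strand: CtcttcttaAcatcCtgTtgtgg
The site at chr13:75540292-75540314 lies in an intron of COMMD6 and differs at 3 positions, G1T, C6G and A9G, where each change names the guide's base, the position from its 5′ terminus and the site's base. The other 4 sites differ at 4 positions each and lie outside protein-coding genes. Their nearest members are MPHOSPH8 at 668 kb, RFXAP at 208 kb, NDFIP2 at 338 kb and GPC5 at 1739 kb. Whether any of these places was cut was not measured.

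The counts of K562/SSedit-2 replicate 4 were all even. None of its 25637 genes above 0 had an odd count, while 54.2% to 55.7% of such counts were odd in each of the other 11 libraries. How this arose was not tested. Divided by 2, its total of 34025528 becomes 17012764, which would be the lowest of the 12 libraries. Levels relative to library size keep their values under this division, but the counting error of the library would be larger than that of its deposited counts, and LPAR6 would fall below the count minimum, leaving 195 members. Values of this library below are as deposited, and a fit with its counts halved is given beside the results of K562/SSedit-2 cells.

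K562 replicate 1 stood apart from the other libraries before any comparison. Its median member had a log2 ratio of 0.16 to the K562 mean, against -0.05, -0.07 and -0.03 in K562 replicates 2, 3 and 4. Protein-coding genes outside chromosome 13 were shifted in the same library, with a median of 0.08 against values from -0.03 to -0.01 in the other K562 libraries. Without this library 12 members gained a call and 4 lost one in K/VP.5 against K562, and 32 gained and 2 lost one in K562/SSedit-2 against K562.

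The erythroid label was checked against its markers. All 10 erythroid markers were read in each line, and their summed level was 3386 to 4412 CPM (counts scaled to a common library size) in K562, 3028 to 3272 CPM in K/VP.5 and 4674 to 5173 CPM in K562/SSedit-2 cells. TFRC, the transferrin receptor, was the most abundant of them, at 2659 CPM in K562, 1880 CPM in K/VP.5 and 3419 CPM in K562/SSedit-2 cells. The 5 T and B lymphoid markers summed to 25.5 to 53.2 CPM in K562, 9.35 to 13 CPM in K/VP.5 and 38.8 to 55.0 CPM in K562/SSedit-2 cells. CD3D made up nearly the whole of that sum, and MS4A1 was at 0 in every K/VP.5 and K562/SSedit-2 library. The 3 monocyte markers summed to 1.53 to 1.66 CPM in K562, 2.61 to 3.60 CPM in K/VP.5 and 0.776 to 1.47 CPM in K562/SSedit-2 cells, with ITGAM the most abundant in K562 and K/VP.5 and CSF1R, at 0.561 CPM, just above ITGAM in the edited clone. Among 4 fibroblast and epithelial markers, which summed to 158 to 198 CPM in K562, 145 to 156 CPM in K/VP.5 and 169 to 186 CPM in K562/SSedit-2 cells, EPCAM was the most abundant, at 176 CPM in K562 and 129 CPM in K/VP.5. COL1A1, a fibrillar collagen chain, moved the other way, at 2.59 CPM in K562, 22.5 CPM in K/VP.5 and 2.16 CPM in the edited clone, as did CDH1, at 0.275, 0.905 and 0.0774 CPM in that order. PDGFRA was at 0 in every K562/SSedit-2 library and under 0.1 CPM in the other lines. The part of these marker differences in the shift of chromosome 13 was not tested.

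Most members were higher in K/VP.5 than in their K562 parent. Of the 195 members tested, 136 were called higher, 23 were called lower and 36 were not called, where called means an adjusted p under 0.1 in edgeR's quasi-likelihood test over 18626 genes. Over all genes tested 52.3% were called, 26.2% higher and 26.1% lower. The median log2 fold change of the members was 0.45, with a middle range from 0.14 to 0.67, beside a median of 0.01 over all genes tested. A change of at least 2-fold was called in 27 members that were higher and 13 that were lower (8.98% and 6.66% of all genes). Within 0.3 of the median lay 106 members. FLT1, NBEA, SMAD9, KLF12 and GPC5 passed the count minimum through K/VP.5 alone and so had to be higher, and these 5 are part of every count of members called higher in K/VP.5 to which they belong. WASF3 met the count minimum and was too low for the test, at 0.261 to 0.474 CPM in K/VP.5 and 0.0807 to 0.275 CPM in K562 cells. In bulk RNA such as this, fewer cells of a type and less RNA per cell cannot be told apart.

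**Figure D1:**
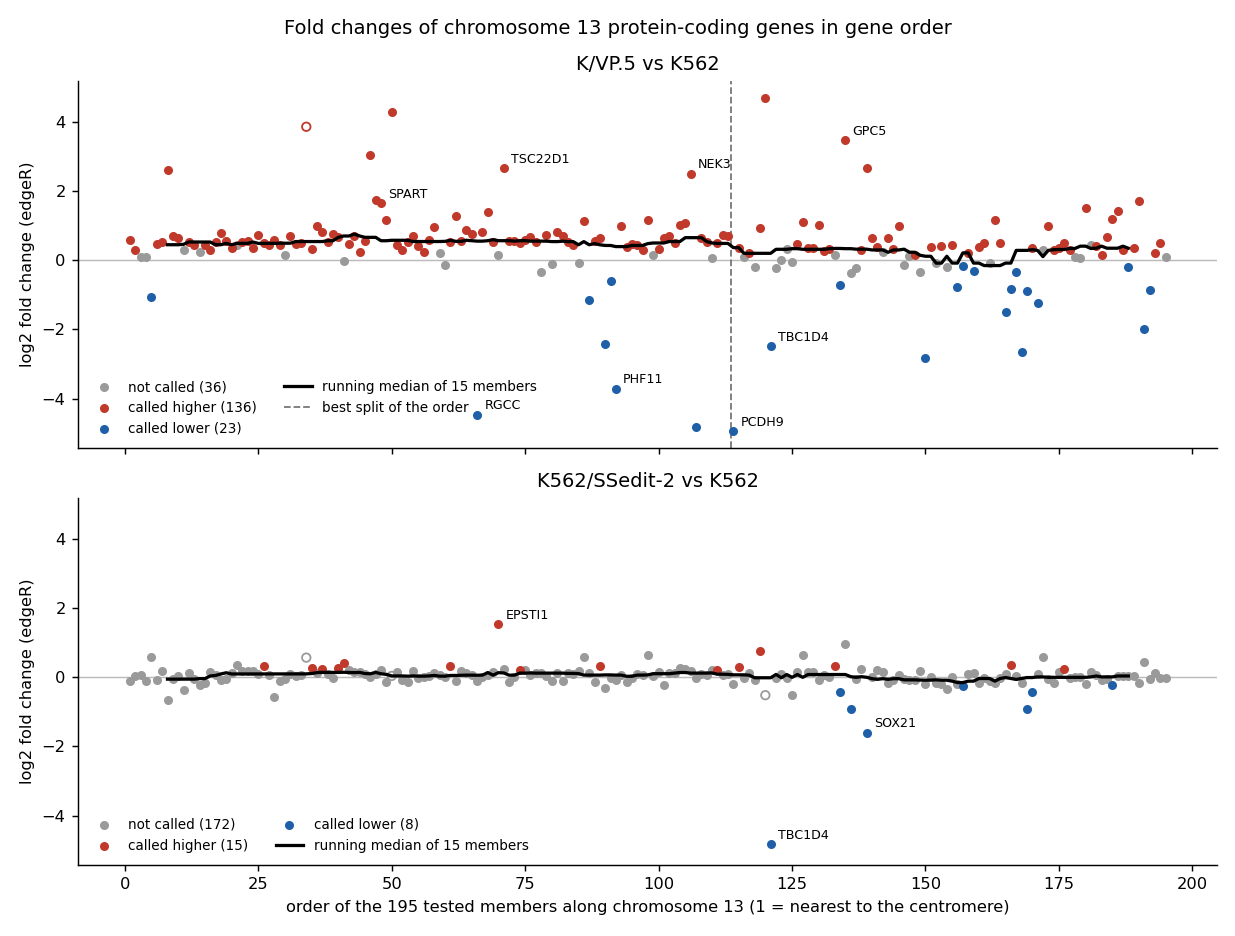
The log2 fold change of each of the 195 tested members (vertical axis) is plotted in gene order along the chromosome (horizontal axis) for each derived clone against K562. Red points were called higher, blue points lower and grey points not called, open circles mark members with 3 or fewer counts in every library of a line compared, and the black line is the running median of 15 members. In K/VP.5 the line ran near 0.5 up to the dashed split and lower after it, with 136 members called higher and 23 lower, while in K562/SSedit-2 cells it stayed near 0.

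The shift was present in each K/VP.5 library. Over 174 members with at least 1 CPM on average, the median log2 ratio to the K562 mean was 0.47, 0.44, 0.44 and 0.35 in K/VP.5 replicates 1 to 4. In K562/SSedit-2 replicates 1 to 4 it was 0.07, -0.00, -0.02 and 0.12. The lowest K/VP.5 library lay above K562 replicate 1, the highest of the other 8 libraries at 0.16, so K/VP.5 did not overlap with either line. The 10997 protein-coding genes outside chromosome 13 had medians of -0.05 to -0.02 in the same K/VP.5 libraries. As a share of the counts of all genes tested, the 196 members took 0.864%, 0.858%, 0.852% and 0.809% in K/VP.5 replicates 1 to 4. The Wilson 95% interval of the lowest of these ran from 0.806% to 0.812%. The highest share in another line was 0.677% in K562/SSedit-2 replicate 4, with an interval from 0.673% to 0.681% when its counts are halved. K562 libraries ranged from 0.580% to 0.657%. These intervals cover counting error alone.

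**Figure D2:**
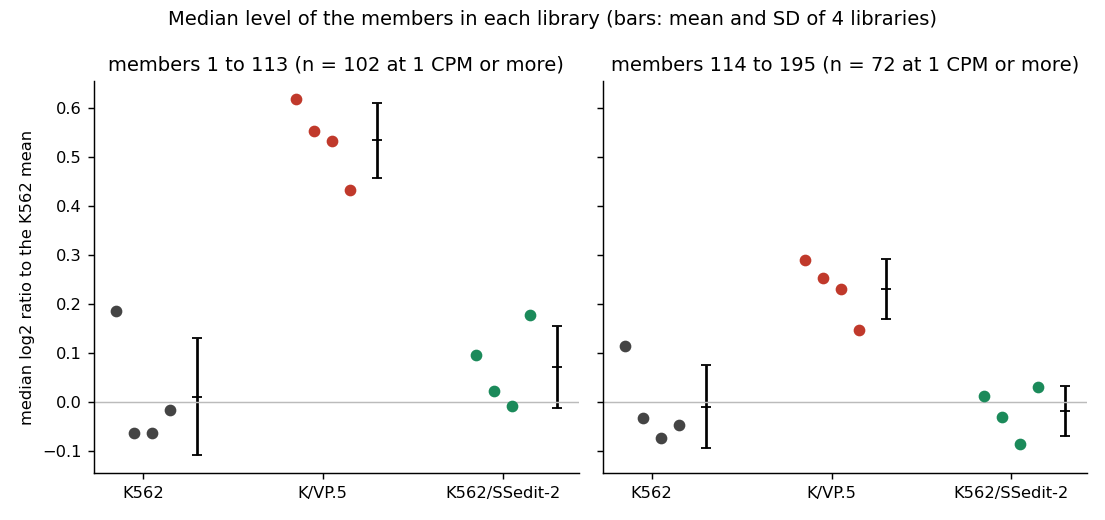
Each point is the median log2 ratio of the members to the K562 mean in 1 library (vertical axis), for those of members 1 to 113 in gene order (left, 102 members) and 114 to 195 (right, 72 members) that had at least 1 CPM on average, in the 3 lines (horizontal axis). Bars are the mean and SD of 4 libraries. The K/VP.5 libraries sit at 0.43 to 0.62 on the left and at 0.15 to 0.29 on the right, above every K562 and K562/SSedit-2 library in both panels.

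Chromosome 13 had the highest median of the 23 chromosomes compared, as its selection implies. Its tested members stood at 0.45, followed by the protein-coding genes of chromosome 22 at 0.14 and chromosome 18 at 0.13. Chromosome 10 at -0.33 and chromosome X at -0.29 were the lowest. For the edited clone, compared with the same K562 libraries, the medians ran from -0.15 on chromosome 19 to 0.05 on chromosome 13, close to chromosome 18 at 0.04, and that of chromosome 13 moved from 0.02 to 0.10 as single libraries were left out.

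**Figure D3:**
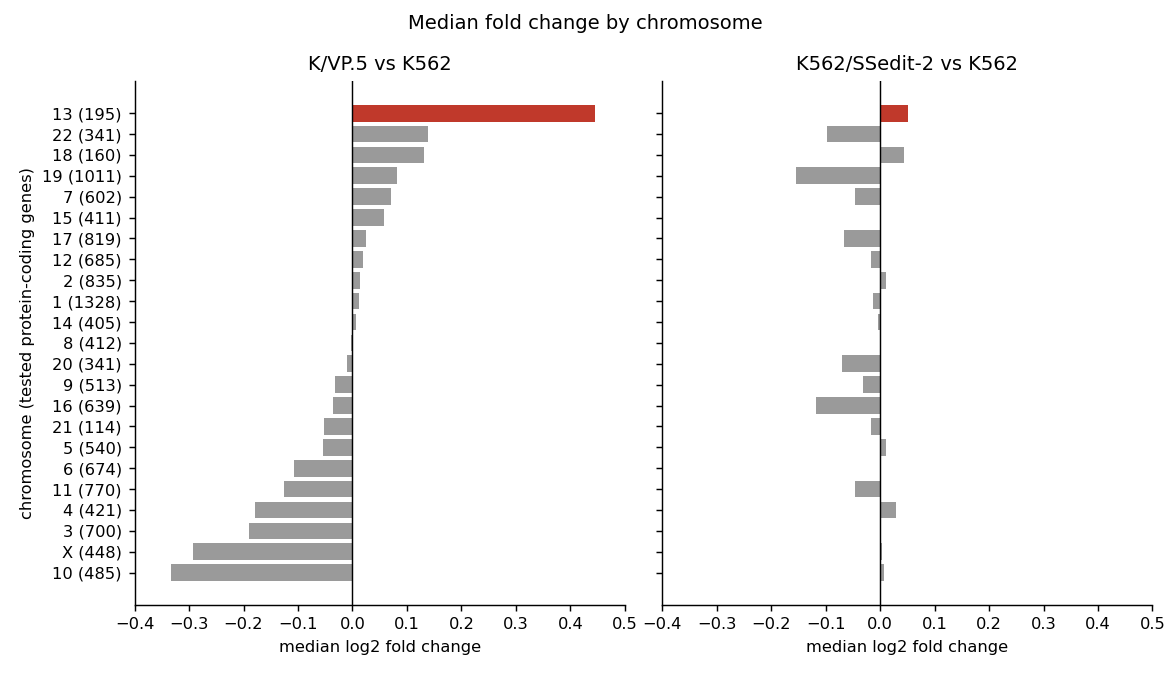
Bars give the median log2 fold change of the tested protein-coding genes of each chromosome, with the number of genes in brackets, for K/VP.5 (left) and K562/SSedit-2 (right) against K562. Chromosome 13, in red, stands at 0.45 on the left, where the next highest is 0.14, and at 0.05 on the right.

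By position, the centromere side of the order had the higher median, although the members nearest to the centromere did not. The point in gene order that best divides the fold changes into an upper and a lower level fell between TDRD3, which ends at 60573878, and PCDH9, which starts at 66302834. This division was found from the same values and is a description chosen after seeing the data. The 113 members before it had a median log2 fold change of 0.54, and 91 were called higher, 7 lower and 15 not called. The 82 members after it had a median of 0.29, with 45 called higher, 16 lower and 21 not called. Among members of at least 10 CPM on average, 69 of 78 before the division were called higher and 0 lower, and after it 32 of 47 were called higher and 6 lower. These counts and those of the windows below stand beside 26.2% of all genes called higher and 26.1% called lower. No share over all genes at 10 CPM or more is given, and a fall in a line itself lowers the mean that sets this level. Nothing is read from these counts. Before and after the division, the medians of K/VP.5 against K562/SSedit-2 cells were 0.47 and 0.19. That comparison shares the K/VP.5 libraries with the first.

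In windows of 10 Mb the median was 0.20 from 10 to 20 Mb, where 2 of 4 members were called higher, 0.49 from 20 to 30 Mb, 0.58 from 30 to 40 Mb, 0.54 from 40 to 50 Mb and 0.65 from 50 to 60 Mb. From 30 to 40 Mb, 20 of 21 members were called higher, and B3GLCT was the one that was not. The median was 0.32 from 70 to 80 Mb, 0.27 from 90 to 100 Mb and 0.31 beyond 110 Mb. The window from 100 to 110 Mb differed, with a median of -0.12 over 16 members, of which 7 were called higher and 8 lower. Cut at 5 Mb, its median was 0.07 from 100 to 105 Mb, with 4 members called higher and 3 lower. From 105 to 110 Mb it was -0.58, with 3 called higher and 5 lower. The windows from 60 to 70 Mb and from 80 to 90 Mb also lay below the median of all genes but held 2 members and 1 member, with medians of -2.11 and -0.72. The running median of 15 members peaked at 0.76 around N4BP2L2 and was lowest at -0.15 around BIVM.

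Runs of neighbours with the same call were longest on the centromere side. The longest held 17 members called higher, from BRCA2 to FOXO1 (chr13:32315086-40666641), with a median log2 fold change of 0.58. The next held 10 members, from LNX2 to HSPH1 (chr13:27545913-31162388), with a median of 0.68. NBEA and SMAD9 in the first and FLT1 in the second had to be higher, and without them the runs hold 15 and 9 members. The longest run also rested on PDS5B and NHLRC3, which both lost their calls without K562 replicate 3 and without K/VP.5 replicate 2, so that its longest piece was then the 11 members from RFC3 to PROSER1. These stretches mix unrelated functions: PDS5B holds sister chromatids together, RFC3 loads the replication clamp, EXOSC8 is part of the RNA exosome and COG6 part of the Golgi tether. The longest runs of members that were not called higher had 5 members each. NALF1, LIG4, ABHD13, TNFSF13B and MYO16 (chr13:107163510-109208005) were all called lower, with a median of -0.90. TBC1D4, COMMD6, UCHL3, LMO7 and KCTD12 (chr13:75283503-76886405) had a median of -0.05, and TBC1D4 alone among them was called. CAB39L, SETDB2 and PHF11 (chr13:49308650-49528981) formed a run of 3 called lower inside the high stretch, with a median of -2.43. Adjacent members differed by a median of 0.48 on the log2 scale, close to the 0.54 of all pairs of members.

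The members with the largest rises in K/VP.5 cells, at 10 CPM or more in a line and without overlap of replicates, were TSC22D1, NEK3, GAS6, SPART and DGKH. TSC22D1 (ENSG00000102804, chr13:44432143-44577147), a leucine zipper regulator of transcription that TGF-β induces, was at 2.83, 2.55, 1.91 and 2.31 CPM in K562 and at 16.2, 15.3, 15.5 and 13.8 CPM in K/VP.5 replicates 1 to 4. Its K562/SSedit-2 libraries, at 4.05, 2.63, 2.03 and 2.51 CPM, overlapped with K562, and all 4 K/VP.5 libraries were higher. The log2 fold change of TSC22D1 was 2.66 with a standard error (SE) of 0.17. NEK3 (ENSG00000136098, chr13:52132639-52159597), a kinase of the NIMA family, was at 2.61, 1.96, 2.18 and 1.63 CPM in K562 and 12.2, 11.4, 12.5 and 11.1 CPM in K/VP.5 cells, a log2 fold change of 2.50 (SE 0.15). The K/VP.5 levels of NEK3 kept within a narrow range far above both other lines.

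GAS6 (chr13:113820549-113864076) encodes a secreted ligand of the AXL family of receptor kinases. It was at 3.27, 4.63, 3.15 and 2.75 CPM in K562 and 11.2, 11.5, 11.3 and 11.7 CPM in K/VP.5 cells, a log2 fold change of 1.72 (SE 0.16). SPART (chr13:36301638-36370180), the spartin protein of endosomes and lipid droplets, was at 22.8, 21.5, 21.9 and 21.9 CPM in K562 and 73.0, 67.7, 70.9 and 64.7 CPM in K/VP.5 cells, a log2 fold change of 1.65 (SE 0.08). The replicates of SPART were tight and the lines far apart. DGKH, a diacylglycerol kinase, was at 9.57, 8.65, 8.13 and 7.37 CPM in K562 and 21.3, 25.2, 22.4 and 19.9 CPM in K/VP.5 cells, a log2 fold change of 1.40 (SE 0.10). SPART, DGKH, TSC22D1 and NEK3 all lie before the division, with starts from 36.3 to 52.1 Mb, and GAS6 lies near the far end.

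**Figure D4:**
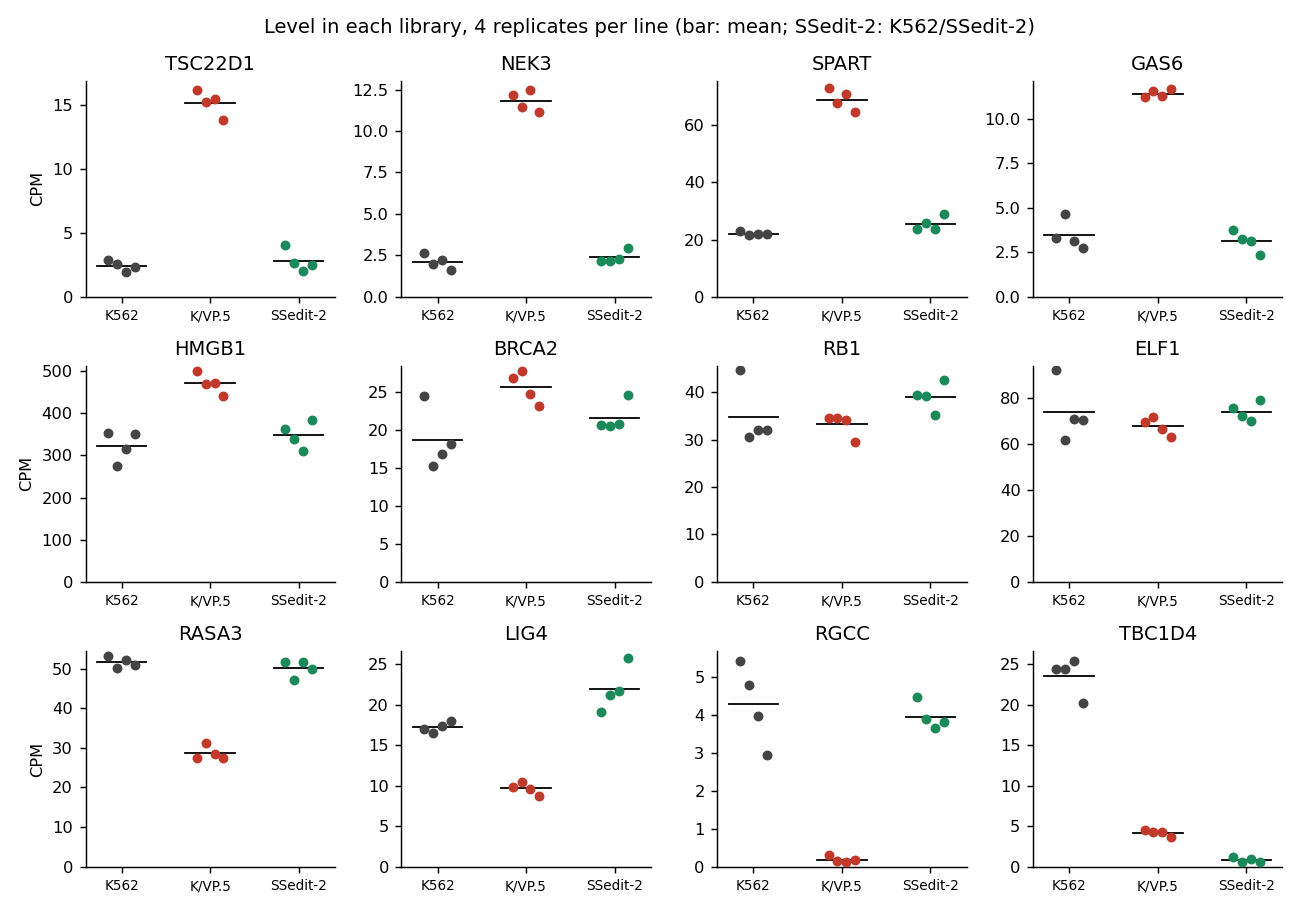
CPM (vertical axis, from 0) of 12 members in each of 4 libraries of each line, with the mean as a bar. TSC22D1, NEK3, SPART and GAS6 stand far above in K/VP.5, HMGB1 and BRCA2 are moderately higher, RB1 and ELF1 overlap between K562 and K/VP.5, and RASA3, LIG4, RGCC and TBC1D4 lie below their K562 levels in K/VP.5.

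Members that passed the count minimum through K/VP.5 alone had to differ, and they are given by their counts. FLT1, a receptor of vascular endothelial growth factor, had 3, 3, 2 and 1 counts in K562 and 25, 53, 30 and 17 counts in K/VP.5 replicates 1 to 4. KLF12, a Krüppel-like transcription factor, had 4, 3, 1 and 2 counts in K562 and 72, 70, 60 and 45 counts in K/VP.5 cells. SMAD9, a transducer of BMP signals, had 0, 4, 3 and 3 counts in K562 and 53, 53, 41 and 36 counts in K/VP.5 cells. NBEA, which encodes neurobeachin, had 6, 5, 3 and 3 and 43, 31, 36 and 21 counts, and GPC5, a glypican of the cell surface, had 3, 2, 3 and 4 and 29, 34, 35 and 26 counts in the same order. All 5 were near background in K562 and clearly read in every K/VP.5 library. In K562/SSedit-2 cells they summed to 12, 6, 9, 15 and 21 counts as deposited. With these members left out, 131 of 190 were called higher and 23 lower, and the median was 0.43.

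At the threshold itself, FLT1, GPC5, KLF12, NBEA, SMAD9, DLEU7 and LPAR6 reached 10 counts in exactly 4 columns. For DLEU7 and LPAR6 these were 3 K/VP.5 columns and 1 K562/SSedit-2 column. Their higher calls against K562 thus rest in part on how members were chosen, and both remain among the 131 called higher above. DLEU7 had 19, 39 and 26 counts summed over the libraries of K562, of K/VP.5 and then of K562/SSedit-2, and LPAR6 had 27, 54 and 36. Just outside, with 3 columns, CCDC168 had 28, 39 and 26 counts, KCNRG 20, 44 and 23, MCF2L 17, 64 and 20, TMEM255B 41, 25 and 26, and TNFRSF19 9, 62 and 4 counts in the same order. DLEU7 and LPAR6 had totals of 84 and 117 over all libraries, near the 75 to 101 of the genes outside, and the other 5 inside had 146 to 263.

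Grouped by role, calls of higher levels were spread over most classes, and no class was tested as a group. The counts below stand beside 26.2% of all genes called higher and 26.1% called lower. Of 30 tested members in RNA processing, translation and nuclear transport, 25 were called higher and 0 lower, with a median log2 fold change of 0.46. IPO5, an importin that carries ribosomal proteins into the nucleus, was at 454, 341, 342 and 351 CPM in K562 and 481, 466, 473 and 438 CPM in K/VP.5 cells, a log2 fold change of 0.32 (SE 0.09). K562 replicate 1 of IPO5 overlapped with the K/VP.5 range, and the other K562 libraries lay below it. TPT1, the translationally controlled tumor protein, was at 333, 220.0, 202 and 236 CPM in K562 and 435, 364, 379 and 319 CPM in K/VP.5 cells, a log2 fold change of 0.60 (SE 0.15). EXOSC8, DIS3 and PAN3, which act in RNA decay, had log2 fold changes of 0.29, 0.20 and 0.49. MRPL57, MTIF3, MRPS31, HNRNPA1L2 and MBNL2 were not called, and all but HNRNPA1L2 were called without K562 replicate 1, MRPL57 and MRPS31 also with the replicate block.

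In ubiquitin, proteasome and chaperone functions, 22 of 26 tested members were called higher and 0 lower, with a median of 0.41. HSPH1, a chaperone of the HSP110 family, was at 194, 210.4, 221 and 247 CPM in K562 and 327, 349.6, 361 and 344 CPM in K/VP.5 cells, a log2 fold change of 0.66 (SE 0.09). POMP, which assists proteasome assembly, was at 101, 85.0, 85.5 and 86.2 CPM in K562 and 123, 109, 113 and 106 CPM in K/VP.5 cells, a log2 fold change of 0.34 (SE 0.08). Neither gene overlapped between these lines. The largest values of the class were those of KBTBD6 at 1.27 and UBL3 at 1.00. UCHL3, a ubiquitin hydrolase, KCTD12, COMMD6 and NDFIP2, an adaptor of NEDD4 ligases, were not called, and these 4 lie after the division. NDFIP2, at 0.14 ± 0.08 (log2 fold change ± SE), was called when the filter was set to 1 CPM in 4 samples, without K562 replicate 1 and, at 0.20, without K/VP.5 replicate 4.

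In metabolism, mitochondria and lysosome, 16 of 20 tested members were called higher and 1 lower, with a median of 0.45. LAMP1, an abundant lysosomal membrane protein, was at 184, 171, 172 and 170.4 CPM in K562 and 275, 277, 281 and 279.8 CPM in K/VP.5 cells, a log2 fold change of 0.67 (SE 0.05). It separated the lines with little spread. SUCLA2, a subunit of succinyl-CoA ligase, stood at 0.83 and VWA8 at 0.82. ESD, esterase D, was at 97.9, 54.3, 52.9 and 52.0 CPM in K562 and 67.0, 56.3, 60.1 and 54.5 CPM in K/VP.5 cells. Its log2 fold change of -0.11 (SE 0.17) was not called and became 0.15, also not called, without K562 replicate 1, the highest library. GGACT was the member called lower, at -0.79 (SE 0.17), and TGDS and CLYBL were not called, although TGDS was without K562 replicate 2.

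Among 22 tested transcription factors and chromatin genes, 16 were called higher, SMAD9 and KLF12 among them, and 2 lower, with a median of 0.54. HMGB1, an abundant DNA-bending protein, was at 354, 274, 315 and 351 CPM in K562 and 501, 471, 472 and 440.4 CPM in K/VP.5 cells, a log2 fold change of 0.54 (SE 0.09). FOXO1, a forkhead factor restrained by insulin signalling, was at 4.65, 3.94, 2.88 and 4.28 CPM in K562 and 9.02, 7.47, 7.12 and 7.25 CPM in K/VP.5 cells, a log2 fold change of 0.97 (SE 0.16). RFXAP, a subunit of the regulator of MHC class II genes, was at 1.15 (SE 0.09), and MPHOSPH8, of the HUSH silencing complex, at 0.59 (SE 0.08). SETDB2 and PHF11, which neighbour each other, were called lower. ELF1, an ETS factor, was at 92.5, 62.0, 70.8 and 70.8 CPM in K562 and 69.8, 71.8, 66.6 and 63.3 CPM in K/VP.5 cells, so that the lines overlapped. That gave a log2 fold change of -0.12 (SE 0.10), not called, and reached the threshold at -0.22 without K562 replicate 2, its lowest library. ZMYM2, ZMYM5 and ZIC2 were not called either, but ZMYM2 was without K562 replicate 1 and ZIC2 without K562 replicate 4.

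Of 24 tested members in cell cycle and genome maintenance, 15 were called higher and 1 lower, with a median of 0.29. RB1 (ENSG00000139687, chr13:48303744-48599436) was at 44.7, 30.5, 31.9 and 32.1 CPM in K562, 34.6, 34.6, 34.0 and 29.6 CPM in K/VP.5 and 39.5, 39.2, 35.2 and 42.5 CPM in K562/SSedit-2 replicates 1 to 4. K562 replicate 1 was the highest library of all for RB1, and the other K562 libraries lay among those of K/VP.5. The log2 fold change of RB1 in K/VP.5 cells was -0.07 (SE 0.11), not called, and 0.06 without K562 replicate 1, also not called. ITM2B and MED4, which flank RB1 on the centromere side, stood at 0.45 and 0.54, and FNDC3A, the first beyond it, at 0.55. LPAR6 and RCBTB2, which lie within the span of RB1, were called higher at 1.12 and lower at -1.15. LPAR6 met the count minimum mostly through K/VP.5, which favours a higher value. The call of ITM2B was lost without K562 replicate 3 or 4 and that of LPAR6 without K562 replicate 2 or K/VP.5 replicate 2. BRCA2 (ENSG00000139618, chr13:32315086-32400268) was at 24.4, 15.2, 16.8 and 18.1 CPM in K562 and 26.8, 27.7, 24.8 and 23.1 CPM in K/VP.5 cells, a log2 fold change of 0.46 (SE 0.12) that was called although K562 replicate 1 overlapped with K/VP.5.

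TFDP1, the partner of E2F factors, was at 184, 173, 177 and 180.2 CPM in K562 and 232, 213, 234 and 230.0 CPM in K/VP.5 cells, a log2 fold change of 0.35 (SE 0.05). CUL4A, a cullin scaffold of ubiquitin ligases, was at 141, 118, 119 and 124 CPM in K562 and 144, 132, 145 and 136 CPM in K/VP.5 cells. Its log2 fold change of 0.15 (SE 0.07) lay just inside the threshold, with overlapping libraries. That call was lost with DESeq2 scaling, with TMM factors from the other chromosomes, in DESeq2, with no filter and in a fit of these lines alone. It was also lost without K562 replicate 2, 3 or 4, without K/VP.5 replicate 1 or 3 and without K562/SSedit-2 replicate 1, at values from 0.10. LATS2, RNASEH2B, BORA, PIBF1, ERCC5, TUBGCP3 and CHAMP1 were not called, and all but LATS2 and RNASEH2B lie after the division. Leaving out K562 replicate 1 called LATS2, RNASEH2B, BORA, TUBGCP3 and CHAMP1, and leaving out K562 replicate 2 or 3 called PIBF1. LATS2 was also called with the replicate block, when the filter was set to 1 CPM, without K/VP.5 replicate 3 and without K562/SSedit-2 replicate 4.

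Growth factor, receptor, matrix and adhesion genes were mostly too low to test. Of 31 such genes on the chromosome, 11 were tested, with 5 called higher, 5 lower and a median of -0.37. FLT1 and GPC5, which had to be higher, are among those called higher. IRS2, an adaptor of insulin receptors, was at 25.6, 20.9, 19.4 and 17.3 CPM in K562 and 26.0, 26.2, 25.1 and 29.2 CPM in K/VP.5 cells, a log2 fold change of 0.36 (SE 0.11). Of 13 leukocyte and coagulation genes, 8 were tested, with F10 called higher, RGCC, GPR183 and RASA3 called lower and a median of -0.35. LCP1, the actin bundler L-plastin, was at 15, 9.57, 9.04 and 7.46 CPM in K562 and 7.80, 9.92, 7.41 and 7.05 CPM in K/VP.5 cells. Its log2 fold change of -0.35 (SE 0.18) was not called, but DESeq2, no filter and the replicate block called it, as did leaving out K562 replicate 3, K562 replicate 4 (-0.50) or K/VP.5 replicate 2. The 54 tested members in no list had a median of 0.53, with 36 called higher and 11 lower.

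**Figure D5:**
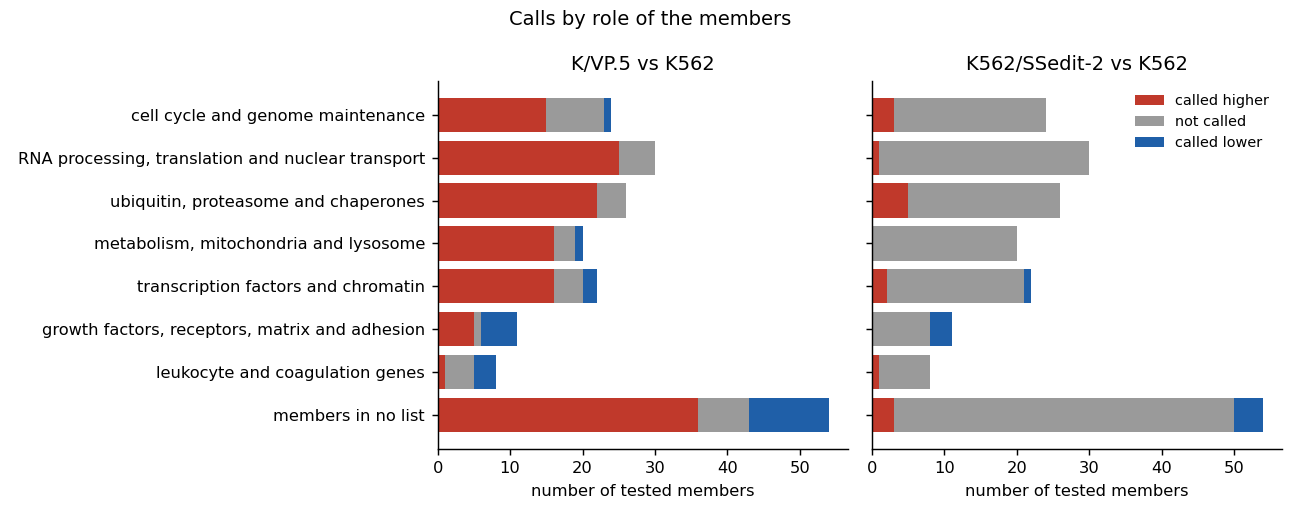
Bars count the tested members of each role list (horizontal axis) called higher (red), not called (grey) and called lower (blue) in K/VP.5 (left) and K562/SSedit-2 (right) against K562. In K/VP.5, RNA processing and ubiquitin functions hold 25 of 30 and 22 of 26 called higher and 0 lower, and the surface and leukocyte lists hold as many or more called lower as higher.

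Members were also counted by their mean level over all libraries, which a fall in a line itself lowers. TBC1D4, at 23.6 CPM in K562, thus averaged 9.52 CPM. No share over all genes at the same levels is given, so nothing about the members is read from these counts. Of 125 members at 10 CPM or more on average, 101 were called higher and 6 lower, with a median of 0.45. Of 49 members from 1 to under 10 CPM, 23 were called higher and 13 lower, with a median of 0.25. Among 21 members under 1 CPM, 12 were called higher, including the 5 that had to be, and 4 lower. Without overlap between the libraries of K/VP.5 and K562, 106 members were called higher and 22 lower, beside 21.1% and 20.6% of all genes tested.

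The members that went against the shift at 10 CPM or more fell by modest amounts, with TBC1D4 as the exception. RASA3 (ENSG00000185989, chr13:113977783-114132623), which switches off RAS-family GTPases, was at 53.1, 50.2, 52.2 and 50.8 CPM in K562, 27.4, 31.3, 28.4 and 27.3 CPM in K/VP.5 and 51.7, 47.0, 51.7 and 49.9 CPM in K562/SSedit-2 replicates 1 to 4. All K/VP.5 libraries were low and the other lines overlapped, for a log2 fold change of -0.85 (SE 0.07). LIG4 (ENSG00000174405, chr13:108207439-108218368), the DNA ligase of end joining, was at 17.0, 16.5, 17.4 and 18.0 CPM in K562, 9.87, 10.5, 9.64 and 8.71 CPM in K/VP.5 and 19.1, 21.1, 21.7 and 25.7 CPM in K562/SSedit-2 cells. The lines did not overlap in LIG4, K/VP.5 being lowest and K562/SSedit-2 highest, and its log2 fold change in K/VP.5 was -0.83 (SE 0.10). SPRY2, an inhibitor of receptor kinase signalling, was at 12.5, 12.5, 9.90 and 10.9 CPM in K562 and 6.82, 7.45, 6.92 and 6.74 CPM in K/VP.5 cells, a log2 fold change of -0.72 (SE 0.10). ABHD13, which starts 24 bases from LIG4 on the other strand, was at -0.34 (SE 0.11).

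Deeper losses were seen among members of low level in K562. PCDH9 (ENSG00000184226, chr13:66302834-67230445), a protocadherin of cell adhesion, was at 5.22, 4.05, 4.04 and 4.52 CPM in K562 and 0.0250, 0.186, 0.232 and 0.136 CPM in K/VP.5 cells, a log2 fold change of -4.94 (SE 0.28). THSD1, a membrane protein with a thrombospondin repeat, was at 3.19, 3.54, 3.44 and 2.97 CPM in K562 and 0.125, 0.0798, 0.174 and 0.0678 CPM in K/VP.5 cells, and had a log2 fold change of -4.82 (SE 0.23). Both were close to background in every K/VP.5 library. RGCC (ENSG00000102760, chr13:41457550-41470871), a regulator of the cell cycle that responds to complement, was at 5.42, 4.79, 3.98 and 2.94 CPM in K562 and 0.30, 0.160, 0.116 and 0.169 CPM in K/VP.5 cells, a log2 fold change of -4.47 (SE 0.27). RGCC lies between NAA16 at 0.77 and VWA8 at 0.82, and THSD1 between NEK3 at 2.50 and VPS36 at 0.66. In both places a near loss thus sat between members that were called higher.

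CAB39L, a scaffold of the kinase LKB1, was at 7.26, 5.52, 5.92 and 6.15 CPM in K562 and 1.20, 1.44, 0.985 and 0.949 CPM in K/VP.5 cells, a log2 fold change of -2.43 (SE 0.16). Its neighbours SETDB2, a relative of histone methyltransferases, and PHF11, a PHD finger protein, had log2 fold changes of -0.59 (SE 0.09) and -3.72 (SE 0.33). The flanking CDADC1 and RCBTB1 were called higher, at 0.65 and 1.00. NALF1, which assists the sodium leak channel, was at -1.51 (SE 0.19), and COL4A2, a chain of basement membrane collagen, at -1.23 (SE 0.28). TNFSF13B, the B cell survival factor BAFF, was at 1.59, 1.38, 0.861 and 0.729 CPM in K562 and 0.15, 0.106, 0.116 and 0.373 CPM in K/VP.5 cells, a log2 fold change of -2.65 (SE 0.38). GPR183, an oxysterol receptor of B cells, was at 9.57, 2.58, 1.99 and 1.46 CPM in K562 and 0.750, 0.718, 0.463 and 0.169 CPM in K/VP.5 cells. K562 replicate 1 carried much of that K562 level, and the log2 fold change of -2.83 (SE 0.55) became -1.90, still called, without it.

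The promoters of 2 members that rose and 2 that fell in K/VP.5 cells show what these windows share and where they differ. Each is the 250 bases before the start of the gene in RefSeq on GRCh38, read 5′ to 3′ on the gene's strand, from windows that hold no annotated exon. The TSC22D1 window precedes a RefSeq start that lies within the gene's longer GENCODE span given above, and the other windows end at the start of that span. Capitals mark matches on either strand, overlapping ones included, to the GC box GGGCGG, the CAAT box as CCAAT, the core TATA box as TATAAA and the GATA motif as AGATAA.
TSC22D1, chr13:44576566-44576815, minus strand: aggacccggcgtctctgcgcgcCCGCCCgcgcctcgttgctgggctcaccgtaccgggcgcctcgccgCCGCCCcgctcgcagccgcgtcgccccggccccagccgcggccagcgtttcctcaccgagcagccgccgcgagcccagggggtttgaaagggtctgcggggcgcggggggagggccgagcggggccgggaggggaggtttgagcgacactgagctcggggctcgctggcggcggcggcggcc
NEK3, chr13:52159598-52159847, minus strand: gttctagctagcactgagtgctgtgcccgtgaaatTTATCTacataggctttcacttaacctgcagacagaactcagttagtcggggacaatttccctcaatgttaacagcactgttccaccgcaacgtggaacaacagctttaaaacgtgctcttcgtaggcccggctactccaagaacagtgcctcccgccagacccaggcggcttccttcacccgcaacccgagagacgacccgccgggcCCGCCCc
RGCC, chr13:41457300-41457549, plus strand: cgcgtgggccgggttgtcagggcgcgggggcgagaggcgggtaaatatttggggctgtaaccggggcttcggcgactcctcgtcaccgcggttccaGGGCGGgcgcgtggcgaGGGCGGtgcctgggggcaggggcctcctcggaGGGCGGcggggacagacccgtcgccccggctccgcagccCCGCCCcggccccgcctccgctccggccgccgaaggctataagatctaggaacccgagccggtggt
GPR183, chr13:99307400-99307649, minus strand: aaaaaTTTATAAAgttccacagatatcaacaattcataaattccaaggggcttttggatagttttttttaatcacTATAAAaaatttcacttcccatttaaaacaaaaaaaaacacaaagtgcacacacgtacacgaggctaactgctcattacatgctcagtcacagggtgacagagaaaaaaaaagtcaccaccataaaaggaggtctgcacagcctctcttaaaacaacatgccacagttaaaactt
The GGGCGG motif occurred 2 times in the TSC22D1 window, 1 time in that of NEK3 and 4 times in that of RGCC, which went in opposite directions. TATAAA occurred 3 times in the GPR183 window, including a pair that overlaps on opposite strands, and AGATAA occurred 1 time in that of NEK3. The windows held 40, 15, 34 and 2 CpG dinucleotides in the order printed. Of 35116 windows of this length over all genes, 42.6% held GGGCGG, 32.0% CCAAT, 10.7% TATAAA and 9.17% AGATAA. Of 172 members with a window the shares were 65.1%, 33.1%, 9.30% and 4.65%. Among protein-coding genes of all chromosomes they were 53.7%, 32.7%, 9.00% and 7.09%. Windows of 119 members called higher held GGGCGG in 65.5% and those of 20 members called lower in 60.0%, so that motif was common in both. A match is a description of these letters and not a measured site.

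Members that share a start region did not always share a call. Of 17 pairs that start within 1000 bases of each other on opposite strands, 9 were both called higher, 2 both lower, 1 in opposite directions and 5 had a partner that was not called. These counts stand beside 136 of 195 members and 26.2% of all genes called higher. No share of such pairs over all genes is given, so nothing is read from the counts. The median difference between partners was 0.22 on the log2 scale. CAB39L and SETDB2, and LIG4 and ABHD13, were the pairs called lower together. DCUN1D2 at 0.31 and TMCO3 at -0.18 were the pair with opposite calls, that of TMCO3 being lost without K/VP.5 replicate 4. ELF1 and WBP4, which start 69 bases apart, stood at -0.12 and 0.54, and the second was called higher.

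K562/SSedit-2 cells were compared with K562 to ask what the edited clone shares with its parent. Of the 195 members tested, 15 were called higher, 8 lower and 172 not called, beside 12.6% of all genes called, 4.86% higher and 7.79% lower. The members called made up 11.8%, close to the share over all genes, and nothing about the members is read from that count. The member median was 0.05, against -0.01 over all genes tested. A change of at least 2-fold was called in EPSTI1, which was higher, and in TBC1D4 and SOX21, which were lower (0.805% and 1.26% of all genes), and EPSTI1 and SOX21 are named after their values were seen. The number called higher rested on single libraries: it was 42 without K562 replicate 1, 5 without K562 replicate 2, 6 without K562 replicate 3 and 9 without either K562/SSedit-2 replicate 1 or replicate 4. With the counts of K562/SSedit-2 replicate 4 halved, 14 were called higher and 7 lower, SUGT1 and GRTP1 being the members that lost a call, and the median stayed at 0.05.

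TBC1D4 (ENSG00000136111, chr13:75283503-75482169), a GTPase-activating protein that controls insulin-driven glucose transporter traffic, was the member with the largest difference. It was at 24.4, 24.4, 25.3 and 20.2 CPM in K562, 4.55, 4.23, 4.26 and 3.66 CPM in K/VP.5 and 1.20, 0.616, 0.938 and 0.537 CPM in K562/SSedit-2 replicates 1 to 4. The lines did not overlap, with K562 highest, K/VP.5 between and K562/SSedit-2 lowest. Its log2 fold change against K562 was -4.84 in K562/SSedit-2 cells (SE 0.18, adjusted p = 7.74e-11 in the quasi-likelihood F test of edgeR, adjusted by Benjamini-Hochberg) and -2.49 (SE 0.15) in K/VP.5 cells. The near edge of TBC1D4, which is the start of this minus-strand gene, lies 58.1 kb from the guide-like site in COMMD6 shown above. COMMD6 itself, a member of the COMM domain family, was at 12.6, 9.78, 7.70 and 7.54 CPM in K562, 9.32, 7.69, 8.02 and 7.18 CPM in K/VP.5 and 10.0, 9.64, 9.38 and 7.82 CPM in K562/SSedit-2 cells, with all lines overlapping. Its log2 fold change in K562/SSedit-2 was -0.03 (SE 0.15, adjusted p = 0.945 in edgeR). In K/VP.5 cells it was -0.22 (SE 0.15), not called, and reached the threshold at -0.34 without K562 replicate 4.

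Members nearest to the other sites were compared in the same way. NDFIP2 rose from 39.6 ± 2.84 to 49.3 ± 2.47 CPM (SD, 4 replicates; log2 fold change 0.32, SE 0.08, adjusted p = 0.0237 in edgeR), without overlap of the libraries. MPHOSPH8 had -0.11 (SE 0.08, adjusted p = 0.474 in edgeR) and was called, at -0.18, without K562 replicate 1. RFXAP had -0.13 (SE 0.10, adjusted p = 0.486 in edgeR). GPC5 was near background in both lines, with 12 counts over the K562 and 21 over the K562/SSedit-2 libraries as deposited. Whether the distance to a site has any part in these values was not tested.

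Other rises in the edited clone among members of at least 10 CPM in either line were small. LIG4, described above, had a log2 fold change of 0.35 (SE 0.09, adjusted p = 0.0330 in edgeR), the opposite direction to K/VP.5, with no overlap of libraries. MZT1, a component of γ-tubulin rings, rose from 26.3 ± 1.45 to 32.3 ± 2.47 CPM (log2 fold change 0.30, adjusted p = 0.0351 in edgeR). B3GLCT, a glucosyltransferase that modifies thrombospondin repeats, rose from 7.90 ± 0.849 to 10.4 ± 1.49 CPM (log2 fold change 0.40, adjusted p = 0.0484 in edgeR). The call of B3GLCT was lost without K562 replicate 2, at 0.33, and without K562/SSedit-2 replicate 1 or 4. KATNAL1, a microtubule-severing katanin, had 0.25 (adjusted p = 0.0764) and HSPH1 0.26 (adjusted p = 0.0947) in edgeR. The call of KATNAL1 was lost with no filter, in a fit of these lines alone, without K562 replicate 2, 3 or 4 and without K562/SSedit-2 replicate 1 or 2. That of HSPH1 was lost in the fit of these lines alone and without any 1 library other than K562 replicate 4 and K562/SSedit-2 replicate 1, at values from 0.17. POMP, at 0.28 (adjusted p = 0.0329 in edgeR), was not called without K562 replicate 2.

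Among the falls, SPRY2 went from 11.5 ± 1.29 to 8.46 ± 0.124 CPM (log2 fold change -0.44, SE 0.10, adjusted p = 0.00992 in edgeR). IRS2 went from 20.8 ± 3.54 to 15.4 ± 1.51 CPM (log2 fold change -0.44, SE 0.11, adjusted p = 0.0238 in edgeR). IRS2 was lower than K562 in each K562/SSedit-2 library, and SPRY2 likewise. TMTC4, a mannosyltransferase of the secretory pathway, fell by 0.26 on the log2 scale (adjusted p = 0.0379 in edgeR), a call that was lost without K562 replicate 2 or K562/SSedit-2 replicate 3. MYO16, an unconventional myosin named after its values were seen, had a log2 fold change of -0.92 (adjusted p = 0.00181 in edgeR) beside -0.90 in K/VP.5 cells. RB1 (0.17), BRCA2 (0.22), TPT1 (0.21) and LCP1 (0.13) were not called, and each was called without K562 replicate 1, at 0.31, 0.37, 0.39 and 0.37. By role, 5 of 26 ubiquitin, proteasome and chaperone members were called higher, 3 of 24 in cell cycle and genome maintenance, 1 of 30 in RNA processing, 1 of 8 leukocyte and coagulation genes and 0 of 20 in metabolism, with 0 lower in each of these lists. Of 22 transcription factors and chromatin genes 2 were higher and 1 lower, and of 11 growth factor, receptor, matrix and adhesion genes 0 were higher and 3 lower. The 54 members in no list had 3 higher and 4 lower, and the shares over all genes were 4.86% and 7.79%.

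K/VP.5 compared with K562/SSedit-2 cells set both resistant clones beside each other. Of the 195 members, 120 were called higher in K/VP.5, 25 lower and 50 not called, beside 54.0% of all genes called, 27.8% higher and 26.2% lower, and the median was 0.36. Against both lines 115 members were called higher in K/VP.5 and 20 lower, beside 21.4% and 20.7% of all genes tested, and these comparisons share the K/VP.5 libraries. Halving the counts of K562/SSedit-2 replicate 4 changed no call of a member in either. TBC1D4 was the member called in opposite directions, lower than K562 and higher than K562/SSedit-2, with log2 fold changes of -2.49 and 2.34. Among members of at least 10 CPM in either clone without overlap, the largest rises were those of TSC22D1 at 2.44, NEK3 at 2.32, GAS6 at 1.88, SPART at 1.44 and GRTP1 at 1.44. GRTP1, a TBC domain protein regulated by growth hormone, was at 17.4, 18.3, 17.3 and 15.3 CPM in K562, 40.0, 38.0, 38.6 and 41.1 CPM in K/VP.5 and 15.3, 15.5, 14.3 and 13.1 CPM in K562/SSedit-2 cells. Its K/VP.5 libraries were far above the rest.

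The largest falls at 10 CPM or more in this comparison were LIG4 at -1.17 (SE 0.10), RASA3 at -0.81 (SE 0.07), LCP1 at -0.47 (SE 0.18), B3GLCT at -0.43 (SE 0.12) and TEX30 at -0.42 (SE 0.12). Each was lower in every K/VP.5 library than in any K562/SSedit-2 library. RB1 was called lower by a small amount, -0.23 (SE 0.11), a call that was lost without K/VP.5 replicate 4 and without K562/SSedit-2 replicate 1, 2 or 4. BRCA2 was not called at 0.25 (SE 0.12), but was with the replicate block, with no filter, with the filter at 1 CPM and in a fit of these lines alone, as well as without K562 replicate 1, K/VP.5 replicate 4 or K562/SSedit-2 replicate 4. IRS2 was at 0.79 (SE 0.11) and thus differed more here than against K562, with K562 between the clones.

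Some members have uncertain counts. RPL21, TPT1, HMGB1, PABPC3 and HNRNPA1L2 have near-identical processed copies elsewhere in the genome, and the handling of reads that map to several places is not stated. The strand used in counting is not stated either, so reads of overlapping genes on opposite strands cannot be told apart. Of the 195 tested members, 110 share no exon base with another gene, and PABPC3, HNRNPA1L2 and STK24 are among those that share over 50% of theirs.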

How the data were processed

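RNA from 12 libraries was sequenced, 4 per line. The authors mapped paired-end reads to GRCh38 with HISAT2, counted them per gene with featureCounts and deposited whole-number counts without normalization. The deposited counts of K562/SSedit-2 replicate 4 are all even, which the sources used here do not explain. Their annotation release, strand setting and treatment of reads with several places are not given in the sources used here. The table had 0 columns that belong to no sample. Positions, gene types and symbols came from GENCODE 44, which held 60401 of the 60671 gene IDs.

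Counts were fitted with edgeR 4.0.16 (R 4.3.3) on all 12 libraries with line as the factor, TMM scaling and filterByExpr at a minimum count of 10, which kept 18626 genes. Quasi-likelihood p-values were adjusted by Benjamini-Hochberg over these genes and called at 0.1. The fit was tested on simulated data. SE was taken as the size of the log2 fold change over the root of F, and CPM uses TMM library sizes. Library ratios use a pseudocount of 0.5 CPM. Genes starting within 1000 bases on opposite strands were paired, and the division of the chromosome left at least 15 members on each side.

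The members and lists were chosen with earlier results of these data known. Genes were named by rule: RB1, BRCA2, FOXO1, ELF1, TPT1, IRS2, TBC1D4 and COMMD6; in each comparison the 5 largest rises and 5 largest falls among called members of at least 10 CPM in either line without overlap of replicates; in K/VP.5 against K562 up to 10 called against the member median at 1 CPM or more; the 2 members of highest count in each of 7 role lists; and members nearest to a guide-like site. Other members are named as examples of a list or position.

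Same-numbered K562 and K562/SSedit-2 libraries deviated together over genes, with correlations of 0.292, 0.141, 0.252 and 0.135 for replicates 1 to 4. The labels' replicate numbers were therefore taken to pair those samples. The main fit does not use this pairing, so the SEs and adjusted p-values given for K562/SSedit-2 against K562 are unpaired. Alternatives were DESeq2 1.42.0 as test and as scaling, limma 3.58.1 voom, TMM without chromosome 13, no filter, a filter of 1 CPM in 4 samples, 2 lines in the fit, a replicate block, each replicate left out, adjusted p under 0.05, a 2-fold cutoff and windows of 5 Mb. A fit with the even counts of K562/SSedit-2 replicate 4 divided by 2 was added later, and the main fit uses the counts as deposited.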

Additional observations from a re-analysis of the deposited data

Results flagged for a closer look

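In 141 groups of 4 libraries checked, 11 held a library whose distance from the nearest other library, as a part of the group's range, exceeded the critical value of Dixon's test at the 95% level. Chance alone gives about 1 in 20 such groups.

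K562 replicate 1 was the distant library for 6 members. RB1 was at 44.7 CPM there against 30.5 to 32.1 CPM in the other K562 libraries, a gap of 0.887 of the range. ESD, an esterase, was at 97.9 CPM against 52.0 to 54.3 CPM (0.951). IPO5, an importin, was at 454 CPM against 341 to 351 CPM (0.911). POMP, of proteasome assembly, was at 101 CPM against 85.0 to 86.2 CPM (0.920). LAMP1, of the lysosomal membrane, was at 184 CPM against 170.4 to 172 CPM (0.919). GPR183, the oxysterol receptor, was at 9.57 CPM against 1.46 to 2.58 CPM (0.862). All 6 were higher in this library.

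K/VP.5 replicate 4 was distant for 2 members, with RB1 at 29.6 CPM against 34.0 to 34.6 CPM (0.880) and TNFSF13B at 0.373 CPM against 0.106 to 0.15 CPM (0.837). K562/SSedit-2 replicate 4 was distant for BRCA2, at 24.6 CPM against 20.5 to 20.7 CPM (0.95), and for NEK3, at 2.92 CPM against 2.12 to 2.25 CPM (0.837). In K562/SSedit-2 replicate 1, SPRY2 was at 8.65 CPM against 8.39 to 8.41 CPM (0.896), a small difference.

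Every count of K562/SSedit-2 replicate 4 was even, over 25637 genes above 0, while 54.2% to 55.7% of such counts were odd in the other libraries.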

How the results depend on the processing

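No median over all members and no named gene that was called turned its direction under an alternative. With TMM factors from the other chromosomes, the median over all genes tested went from 0.0067 to -0.0068 in K/VP.5 against K562. In K/VP.5 against K562/SSedit-2 it went from 0.013 to -0.0039. Over all 195 members, GPR183 and CHAMP1 turned, in K562/SSedit-2 against K562 without K562 replicate 1, and were called there and not in the main fit. With the even counts of K562/SSedit-2 replicate 4 divided by 2, a setting added after the data were seen, 14 members were higher and 7 lower in K562/SSedit-2 against K562, and no call of a member changed in the comparisons of K/VP.5. With a 2-fold cutoff, 27 members were higher and 13 lower in K/VP.5 against K562. The counts were 1 and 2 in K562/SSedit-2 against K562, and 23 and 14 in K/VP.5 against K562/SSedit-2. Over all 18626 genes tested, 1791 were higher and 1154 lower at this cutoff in the last of these comparisons. The 15 members higher in K562/SSedit-2 became 8 with 2 lines in the fit and 6 at adjusted p under 0.05. Leaving out each replicate gave 124 to 144 members higher and 21 to 27 lower in K/VP.5 against K562, 5 to 42 and 6 to 11 in K562/SSedit-2 against K562, and 110 to 124 and 23 to 26 in K/VP.5 against K562/SSedit-2. The medians were then 0.39 to 0.47, 0.02 to 0.10 and 0.32 to 0.41. The division of the chromosome, chosen after seeing the data, left 113 members before it each time, with medians of 0.48 to 0.59 before and 0.23 to 0.32 after. In windows of 5 Mb, 3 of 19 lay below the median of all genes, as 3 of 11 did at 10 Mb.

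With the replicate block, 140 members were higher and 23 lower in K/VP.5 against K562, 16 and 10 in K562/SSedit-2 against K562, and 126 and 25 between the clones. The block moved no count of calls by over 1.5 times, and of the members named by rule in any comparison it called LCP1 and lost TMTC4 in K/VP.5 against K562 and called BRCA2 in K/VP.5 against K562/SSedit-2. BRCA2 and TMTC4 are not among the pairs counted below for these comparisons. K/VP.5 libraries did not pair by number, with correlations of 0.269, 0.0434, -0.0027 and 0.117 with K562 and 0.161, 0.0894, -0.0257 and -0.0947 with K562/SSedit-2 replicates 1 to 4. For 77 pairs of a named gene and a comparison, 1563 of 1614 values under alternatives kept their side of the threshold, 35 lost a call and 16 gained one, which left 62 pairs with no change. The causes were not tested. At these depths, folds of members under 1 CPM rest on few counts.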
